A study of Homo sapiens with 12 samples.

Results

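In the colorectal cancer line DLD1, 115 gene rows carried dense H3K27me3 and a strong H3K4me3 region, the pairing of marks known as bivalent chromatin, and both marks were followed over these rows in 3 lines derived from DLD1. The rows came from the H3K27me3 table, whose intervals are gene bodies with a read count in each line. A row was taken when it was 1 kb or longer, lay in the top 5% by DLD1 count per kb (34.8 counts per kb or more) and overlapped an H3K4me3 region with at least 10 CPM (read counts scaled to the library total) in DLD1. Of 31374 rows of that length, 1569 were in the top 5%, and 115 of these met the H3K4me3 condition. They fell at 106 separate loci, since 15 of them overlapped another row of the set. DLD1 values of both marks chose the rows, so every ratio to DLD1 below is a description and not support for a difference. Values of the derived lines, and all H3K79me3 values, were not used in the choice. Comparisons among the derived lines are still not free of it, since a line closer to DLD1 can stand higher at the chosen rows.

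The series holds chromatin immunoprecipitation sequencing of H3K4me3, H3K27me3 and H3K79me3 in 4 lines, 12 libraries in all with 1 library per line and mark. DLD1, labelled epithelial, is the parent of the other 3. SA was grown out of colonies in soft agar and SPH out of colonospheres, and both are labelled mesenchymal, while METS, labelled epithelial, was taken from a lung metastasis of a xenograft. All lines were kept in the same serum-containing medium. Library totals were 15605814 to 20410151 counts for H3K27me3, 6722508 to 7753937 for H3K4me3 and 6165169 to 7521451 for H3K79me3. Counts given below are unscaled, and folds and log2 ratios use CPM. There were no replicates, so no test between lines was made. Intervals beside folds are exact 95% Clopper-Pearson intervals and cover counting error only. In bulk chromatin, fewer cells carrying a mark and less of it per cell cannot be told apart.

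H3K4me3 is placed at promoters that are active or open, and H3K27me3 is placed by Polycomb repressive complexes over silent genes. Promoters with both marks were first described in embryonic stem cells, mostly at CpG-rich promoters of developmental regulators, where the gene is held at a low level and can later be switched either way. DOT1L writes H3K79me3 along genes that are being transcribed, and the mark serves here as a readout of transcription that the choice of rows did not use.

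Symbols could be given to 69 of the 115 rows, and the other 46 are named by position on build hg19. RefSeq promoter windows (build GRCh38.p14, 250 bases before to 50 after the gene start) were matched to 49 of the named rows. Their median was 21 CG dinucleotides per window, against 14 over all 27305 windows in the table, and the median GC content was 66.3% against 58.3%. An observed-to-expected CpG ratio above 0.6 with GC above 50% was met by 31 of 49 (63.3%), against 46.8% of all windows. The windows of 4 rows described below and of CNGA4, the window with the fewest CG among rows whose strongest H3K4me3 region lay within 1 kb of the gene start, show this range. CG dinucleotides are in capitals. The windows are chr4:112516131-112516430 (minus strand) for NEUROG2, chr17:46979204-46979503 (minus) for RPRML, chr11:75240524-75240823 (plus) for TPBGL, chr19:409098-409397 (minus) for C2CD4C and chr11:6238839-6239138 (plus) for CNGA4.
NEUROG2: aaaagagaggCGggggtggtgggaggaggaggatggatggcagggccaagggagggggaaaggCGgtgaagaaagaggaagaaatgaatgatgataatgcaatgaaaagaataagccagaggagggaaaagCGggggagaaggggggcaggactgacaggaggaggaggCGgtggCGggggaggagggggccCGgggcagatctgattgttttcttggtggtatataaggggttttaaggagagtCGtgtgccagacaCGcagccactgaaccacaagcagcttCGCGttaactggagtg
RPRML: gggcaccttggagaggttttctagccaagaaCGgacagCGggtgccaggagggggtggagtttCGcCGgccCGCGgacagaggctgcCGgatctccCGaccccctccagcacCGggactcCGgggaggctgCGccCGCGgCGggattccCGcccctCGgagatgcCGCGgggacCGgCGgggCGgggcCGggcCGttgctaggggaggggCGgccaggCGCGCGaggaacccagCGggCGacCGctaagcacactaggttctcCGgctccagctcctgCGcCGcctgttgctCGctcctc
TPBGL: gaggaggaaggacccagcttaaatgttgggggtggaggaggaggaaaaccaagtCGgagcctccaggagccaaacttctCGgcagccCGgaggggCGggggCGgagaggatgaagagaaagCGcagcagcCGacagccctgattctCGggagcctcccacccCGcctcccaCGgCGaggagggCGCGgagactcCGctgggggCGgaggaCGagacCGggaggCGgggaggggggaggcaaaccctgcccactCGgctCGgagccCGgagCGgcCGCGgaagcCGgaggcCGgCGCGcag
C2CD4C: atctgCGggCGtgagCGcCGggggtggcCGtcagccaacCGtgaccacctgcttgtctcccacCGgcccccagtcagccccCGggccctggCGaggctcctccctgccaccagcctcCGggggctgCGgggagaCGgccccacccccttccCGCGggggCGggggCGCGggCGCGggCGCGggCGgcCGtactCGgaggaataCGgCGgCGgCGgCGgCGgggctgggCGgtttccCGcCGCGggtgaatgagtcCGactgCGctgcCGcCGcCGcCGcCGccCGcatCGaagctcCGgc
CNGA4: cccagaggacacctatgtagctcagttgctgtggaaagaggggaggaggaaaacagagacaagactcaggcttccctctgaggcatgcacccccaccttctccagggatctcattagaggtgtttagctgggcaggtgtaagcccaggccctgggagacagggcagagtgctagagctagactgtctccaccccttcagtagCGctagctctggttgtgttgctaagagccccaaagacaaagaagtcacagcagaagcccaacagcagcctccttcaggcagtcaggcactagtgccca
C2CD4C had 44 CG and RPRML 34, TPBGL had 28 and NEUROG2 10, and CNGA4, which encodes a channel subunit of olfactory neurons, had 1. Dense CG content was therefore common among the 49 windows but not shared by every one. Windows of other rows with strong H3K4me3 were not counted apart, so it is not described as particular to this set.

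Whether both marks met at a promoter could not be seen, because H3K27me3 was counted over whole gene bodies. Only the position of H3K4me3 within a row was known, and the gene start was taken as the end of the row given by the strand. In 65 rows the H3K4me3 signal was a single region, and the most regions in a row was 12. The strongest region lay within 2 kb of either end of the row in 85 of 115. Where the strand was known, it was centred within 1 kb of the gene start in 22 of 49 rows and within 2 kb in 27, but farther than 10 kb away in 12. Row lengths ran from 1 to 722 kb with a median of 12 kb. Whether both marks sat on the same nucleosomes or alleles was not tested. Just inside the H3K27me3 threshold were chr18:22641890-22932154 and VIM at 35 counts per kb and chr11:5684425-5959849 at 35.1, and just outside it CACNA2D4 and OTUD7A at 34.8 and MAPT-AS1 at 34.6. On the H3K4me3 side, the lowest accepted regions had 10.1 CPM (UNC5B-AS1) and 10.3 CPM (LINC02299 and chr10:103986085-103989346), and the highest refused ones had 9.52 (chr7:98246609-98259180) and 9.22 CPM (chr2:71163012-71192536 and TMEM132B).

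H3K79me3 was sparse over these rows. An H3K79me3 region was present in 21 of 115 rows (18.3%), compared with 38.9% of all rows of 1 kb or more, 80.0% of the 12539 rows that had a strong H3K4me3 region but no dense H3K27me3 and 4.13% of the 1454 rows with dense H3K27me3 and no strong H3K4me3. Row length differed as well. The median was 12 kb in the 115 rows, 31.6 kb with strong H3K4me3 alone and 4.38 kb with dense H3K27me3 and no strong H3K4me3. The part of length in these gaps was not tested. Among rows with a region, the median H3K79me3 level in DLD1 was 2.13 CPM in the 21 and 29.1 CPM in the rows with strong H3K4me3 alone. Only 10 of the 21 reached 30 counts in any line.

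Median H3K27me3 density was close in DLD1 and SA and lower in SPH and METS. Medians over the 115 rows were 2.94 CPM per kb (DLD1), 3.02 (SA), 2.56 (SPH) and 2.55 (METS), where the median of all rows in DLD1 was 0.317. Summed H3K4me3 followed another order, with medians of 32.3 CPM (DLD1), 25.7 (SA), 23.1 (SPH) and 29 (METS). H3K4me3 over these rows was weaker than over the rows without dense H3K27me3, whose DLD1 median was 67.7 CPM. The row of highest density, chr15:56922379-57210769, stood far from the rest with 583905 H3K27me3 counts in DLD1, or 3.74% of that library, and 3.31, 2.78 and 2.35% of the SA, SPH and METS libraries. The next were CRIP2, a LIM domain protein, at 9.65, 9.66, 5.76 and 5.98 CPM per kb in DLD1, SA, SPH and METS, chr7:100606878-100611410 at 8, 8.35, 7.19 and 6.36, chr6:30434229-30435771 at 6.48, 8.68, 6.57 and 5.75, and HEY1, a transcriptional repressor downstream of Notch, at 6.37, 6.98, 6.19 and 4.55.

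**Figure D1:**
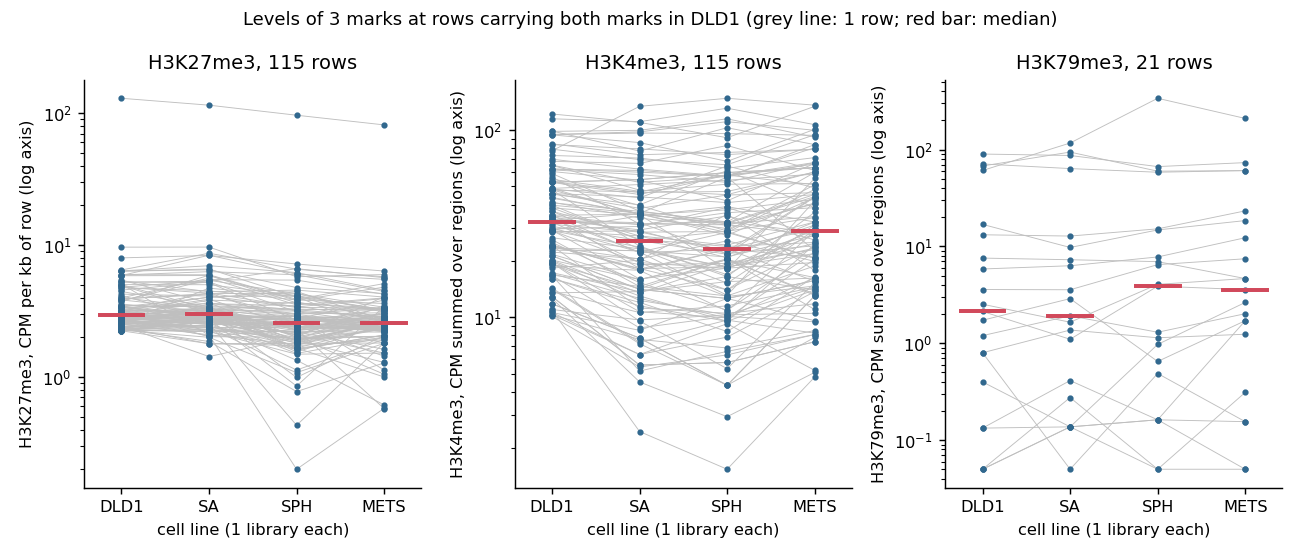
Level of each mark in DLD1, SA, SPH and METS (x axis, 1 library each) on log y axes: H3K27me3 in CPM per kb and H3K4me3 in summed CPM at 115 rows, H3K79me3 in summed CPM at the 21 rows with a region, where values under 0.05 CPM are drawn at 0.05. Grey lines join a row, red bars are medians, and the H3K4me3 median falls from 32.3 CPM in DLD1 to 23.1 in SPH and stands at 29 in METS.

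When the same rule was applied to each line with that line's own top 5%, fewer rows qualified than in DLD1. It gave 92 rows in SA, 88 in SPH and 92 in METS, of which 81, 63 and 74 were among the 115. These are 70.4, 54.8 and 64.3% of the DLD1 rows and 88, 71.6 and 80.4% of the rows of SA, SPH and METS. In SPH, 32 of the 115 kept H3K4me3 without dense H3K27me3, 11 kept dense H3K27me3 without a strong H3K4me3 region and 9 had neither. METS had 28, 11 and 2 in these classes, and SA had 16, 15 and 3. DLD1 values chose the 115 rows, so some loss in the other lines follows from the choice. The share of other rows that crossed the same thresholds was not computed, so these counts are a description. Both marks were present by the rule in all 4 lines at 51 rows, among them NEUROG2, HEY1, EMX1, GLI1 and CACNA1C. No derived line met it at 25 rows. Of these, 13 had H3K4me3 alone in SA, SPH and METS, including VIM, DLL1, HOXD8 and UNC5A, and 6 had H3K27me3 alone, including FEZF1 and FEZF1-AS1. VIM and UNC5A lay just inside the DLD1 threshold of 2.23 CPM per kb. UNC5A had 2.26, 2.21, 1.62 and 2.08 CPM per kb in DLD1, SA, SPH and METS, where the thresholds of SA, SPH and METS were 2.4, 2.23 and 2.27.

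**Figure D2:**
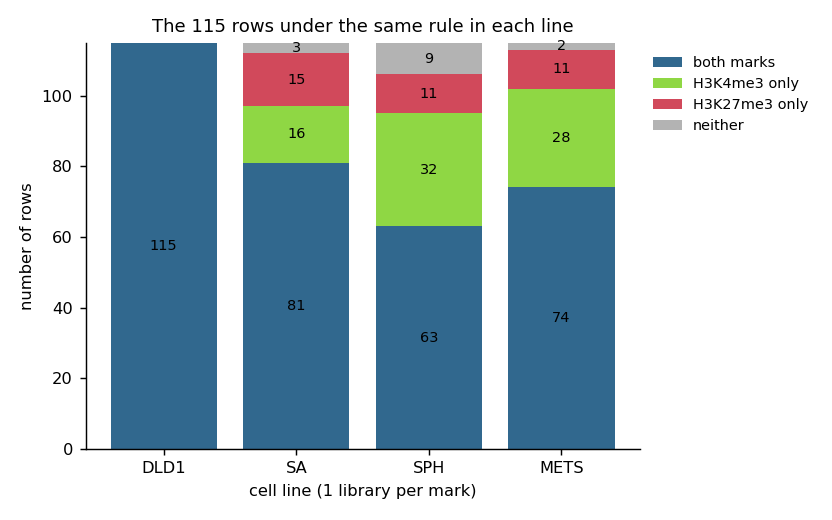
Number of the 115 rows (y axis) that met the rule in each line (x axis, 1 library per mark), with each line's own top 5% for H3K27me3 and 10 CPM for H3K4me3; DLD1 is 115 by construction. The class with both marks is smallest in SPH, at 63 rows, where 32 rows had H3K4me3 alone.

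Against DLD1, H3K27me3 fell past 2-fold at a few rows and rose past 2-fold at none. A row counted as past 2-fold on CPM with 0.5 CPM added. In SA 1 of 115 rows was lower, where 0.586% of all 31374 rows were, and 0 were higher, where 0.351% were. In SPH 11 rows (9.57%) were lower against 1.83% of all rows, and 0 were higher against 0.899%. In METS 8 rows (6.96%) were lower against 0.928% of all rows, and 0 were higher against 0.634%. The median log2 ratios of the 115 were 0.05 in SA, -0.28 in SPH and -0.21 in METS, beside -0.14, -0.10 and -0.02 over all rows. Rows with dense H3K27me3 chosen by the same DLD1 threshold but without strong H3K4me3 had medians of 0.10, -0.05 and -0.05, and 55 of 1454 (3.78%) were lower in SPH and 11 (0.757%) in METS. Among rows of 3 kb or longer (127 rows under the same rule), 3 (2.36%) were lower in METS.

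H3K4me3 was also lower rather than higher where it passed 2-fold. In SA 6 of 115 rows (5.22%) were lower, against 1.52% of the 15037 rows with an H3K4me3 region, and 0 were higher, against 0.18%. SPH had 17 rows lower (14.8%) against 3% of all and 0 higher against 0.924%. METS had 5 lower (4.35%) against 0.565% and 0 higher against 1.48%. The median log2 ratio of the 115 was -0.29 in SA, -0.36 in SPH and -0.08 in METS, and over the 15037 rows it was 0.00, -0.03 and 0.00. With a 20 CPM threshold (81 rows), 1.23% were lower in SA. In METS the share was 0.87% with quantile normalization and with 2 CPM added, near that of all rows. Of the 84 densely marked rows whose H3K4me3 region was below 10 CPM, 7 (8.33%) were lower in SA, 12 (14.3%) in SPH and 1 (1.19%) in METS, with medians of -0.35, -0.14 and 0.20. In SA and SPH these shares were close to or above those of the 115 rows, so the falls are not described as particular to rows with both marks.

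Comparing the derived lines with one another leaves DLD1 out of the ratio but not out of the choice of rows. A line closer to DLD1 can stand higher at them. By median log2 ratio to DLD1, SA was closest for H3K27me3 (0.05, against -0.28 in SPH and -0.21 in METS). METS was closest for H3K4me3 (-0.08, against -0.29 in SA and -0.36 in SPH). The ratios among derived lines are therefore descriptions too. H3K27me3 was lower in METS than in SA at 102 of 115 rows, with a median log2 ratio of -0.26 where all rows had 0.11, and 7 rows (6.09%) passed 2-fold lower against 0.615% of all rows and 0 higher against 0.602%. Among rows of 3 kb or more 0.787% were lower, close to the share of all rows, and with 2 CPM added 2.61% were. It was lower in SPH than in SA at 94 rows, with a median of -0.26 against 0.02, and 6 rows (5.22%) passed 2-fold lower against 0.475% and 0 higher against 0.3%. Densely marked rows without strong H3K4me3 moved the same way by less, with medians of -0.15 in METS and -0.13 in SPH relative to SA. Of these 1454 rows, 1104 were lower in METS than in SA and 1074 were lower in SPH, so the direction was shared with them. Over all 31374 rows, 11468 were lower in METS than in SA and 14449 were lower in SPH. METS and SPH had similar H3K27me3, with a median of -0.02, 3 rows higher in METS (1.3% of all rows were) and 2 lower (0.704% of all rows).

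H3K4me3 was higher in METS than in both mesenchymal lines at 78 of 115 rows (67.8%), an order that 37.2% of all rows with an H3K4me3 region had. The median log2 ratio was 0.23 for METS against SA and 0.29 for METS against SPH, where all rows had -0.01 and 0.03. Past 2-fold, 13 rows (11.3%) were higher in METS than in SPH, against 3.9% of all rows, and 1 was lower, against 1.34%. METS was 2-fold higher than SA at 1 row, chr4:94750042-94751221, against 2.75% of all rows, and SPH and SA differed 2-fold at 0 rows, where 0.771% of all rows were higher in SPH and 1.08% lower. The order was not particular to the set: the 84 rows with dense H3K27me3 and a weaker H3K4me3 region had larger medians, 0.61 for METS against SA and 0.40 against SPH. Both SA and SPH lay below both DLD1 and METS in H3K4me3 at 72 rows (62.6%), against 23.8% of all rows, but DLD1 values took part in choosing the rows. H3K27me3 was lower in METS than in both SA and SPH at 58 rows (50.4%) against 22.8% of all rows. Both SA and SPH lay above both DLD1 and METS in H3K27me3 at 25 rows (21.7%), against 10.8% of all rows. These orders were chosen after the values were seen.

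**Figure D3:**
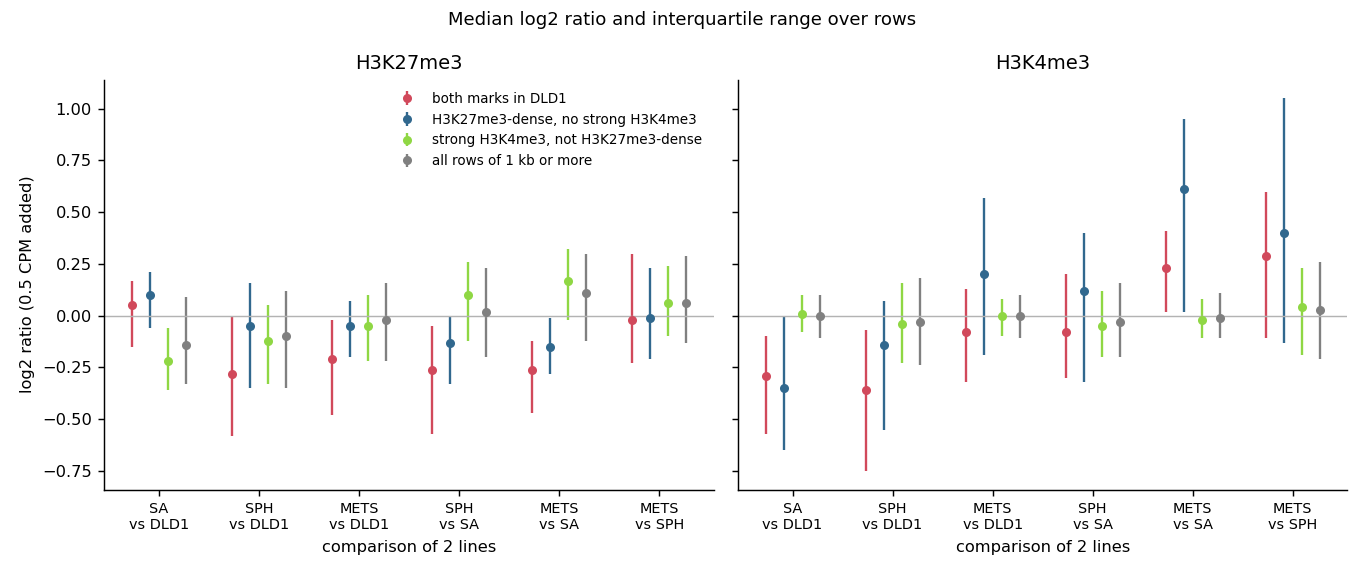
Median log2 ratio (points) and interquartile range over rows (bars) of H3K27me3 and H3K4me3 for 6 comparisons of 2 lines (x axis), for the rows with both marks in DLD1, the other H3K27me3-dense rows (84 of them with H3K4me3), the other rows with strong H3K4me3 and all rows of 1 kb or more. The rows with both marks lie below the other groups for H3K27me3 in METS against SA (-0.26) and, for H3K4me3 in METS against SA and SPH (0.23 and 0.29), above all rows but below the H3K27me3-dense rows (0.61 and 0.40).

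The largest change belonged to chr17:79369275-79375658, a row of 6.38 kb without a symbol here. H3K27me3 was counted 504 times in DLD1, 251 times in SA and 26 and 75 times in SPH and METS. It was lower by a factor of 25.4 in SPH relative to DLD1 (17.1 to 39.2), and by 8.74 in METS (6.84 to 11.3). The other 2 marks were higher in the derived lines: H3K4me3 over 7 regions had 77.6, 134, 148 and 136 CPM, and H3K79me3 had 458, 852, 2090 and 1350 counts in the same order. H3K79me3 was thus 5.57-fold higher in SPH (5.03 to 6.17) and 3.45-fold higher in METS (3.1 to 3.84). The line with the least H3K27me3 had the most H3K4me3 and H3K79me3, and DLD1 the reverse. Among the 49 neighbouring rows within 500 kb, the median H3K27me3 log2 ratio to DLD1 was -0.43 in SPH, far from the -4.21 of the row itself.

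CDKN1C, which encodes the cyclin-dependent kinase inhibitor p57 and is an imprinted gene, had less H3K27me3 in METS than in the other lines. The counts of DLD1, SA, SPH and METS were 163, 213, 156 and 61, and the mark was 3.75-fold lower in METS than in SA (2.81 to 5.07). H3K79me3 counts were 3, 1, 6 and 17 in the same order, and METS was 6.63-fold higher than DLD1 (1.92 to 35.3) on few counts. H3K4me3 was strong in every line, at 122, 110.0, 91.1 and 134 CPM. CDKN1C and the chr17 row were the 2 rows at which H3K27me3 and H3K79me3 passed 2-fold in opposite directions in the same comparison, and no row did so with H3K4me3. Other rows low in METS were chr11:287305-288987, with 81, 82, 46 and 21 H3K27me3 counts, and chr1:65532310-65533420, with 47, 43, 52 and 13.

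Some other rows had their lowest H3K27me3 in SPH. KISS1R, the kisspeptin receptor, had 15.4 CPM of H3K27me3 in DLD1, against 10.2 for SA, 3.18 for SPH and 12.8 for METS, and METS was 4.01-fold above SPH (3.04 to 5.35). DLL1, a ligand of Notch receptors, had 19.1, 15.4, 6.42 and 10.6 CPM in the same order, 2.39-fold lower in SPH than in SA (1.94 to 2.96). C2CD4C, whose CG-rich window is shown above, had 10.3, 11.3, 3.67 and 7.64 CPM, 3.07-fold lower in SPH than in SA (2.35 to 4.05). SPH was the lowest line at all 3 genes. METS was next at DLL1 and C2CD4C, and SA was next at KISS1R. H3K4me3 at DLL1 hardly varied, with 54.6, 47.1, 51.4 and 51.8 CPM, whereas at KISS1R it was 38.4 CPM in DLD1 and 26.1, 23.9 and 25.1 in the derived lines. At chr19:7981030-7983982 and TPBGL both marks were lower in SPH. The chr19 row had 159, 142, 26 and 109 H3K27me3 counts with 85, 35, 21 and 37 H3K4me3 counts. TPBGL, related to the trophoblast glycoprotein, had 12.4, 9.53, 5.24 and 7.34 H3K27me3 CPM and 29, 19.6, 12.9 and 14.7 H3K4me3 CPM. TCHH, the hair follicle protein trichohyalin, had 42.2 CPM of H3K27me3 in DLD1 and 28.3, 15.6 and 21.4 in the derived lines.

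**Figure D4:**
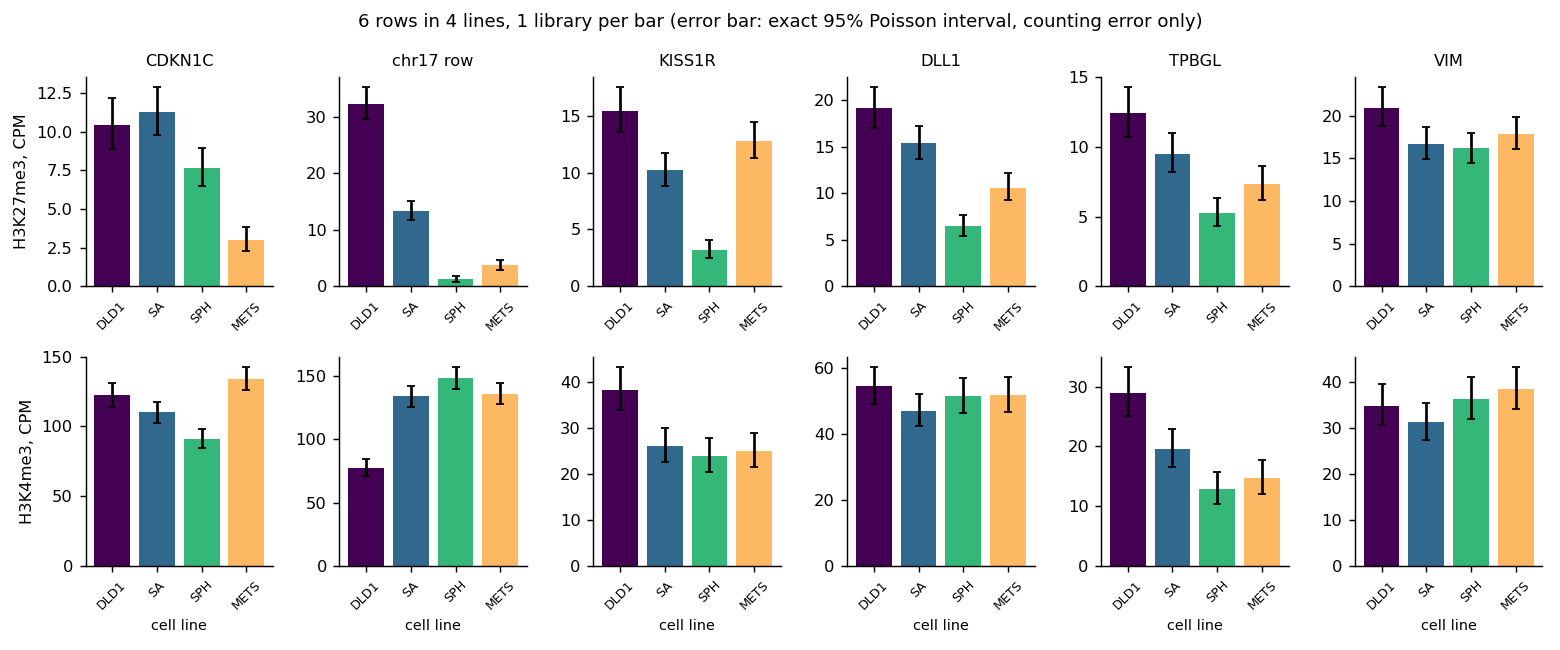
H3K27me3 (top) and summed H3K4me3 (bottom) in CPM (y axes from 0) at 6 rows in DLD1, SA, SPH and METS, 1 library per bar with exact 95% Poisson intervals for counting error. H3K27me3 at KISS1R is low in SPH alone (3.18 CPM), at CDKN1C it is lowest in METS (3.01 CPM), and at the chr17 row it falls from 32.3 CPM in DLD1 to 1.27 in SPH while H3K4me3 rises from 77.6 to 148.

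H3K4me3 ratios to DLD1 were lowest at FEZF1-AS1 and at the chr19 row. FEZF1-AS1, antisense to the forebrain transcription factor gene FEZF1, had 73 counts in DLD1 but 19 in SA, with 11 for SPH and 35 for METS, 7.06-fold lower in SPH than in DLD1 (3.72 to 14.8). The FEZF1 row overlaps it and also holds its region, so both genes cannot be told apart in these data. PRSS56, a serine protease gene, had 131, 74, 38 and 112 counts, and METS was 2.89-fold above SPH (1.98 to 4.29). RPRML, a relative of the cell cycle gene Reprimo, had 225, 173, 94 and 305, 3.18-fold higher in METS than in SPH (2.51 to 4.05). At both genes SPH was the lowest line and the epithelial lines were the highest. RGMB-AS1 was lower in every derived line, with 377 counts in DLD1 and 244, 223 and 201 in SA, SPH and METS. In the opposite direction, chr11:5684425-5959849 had 222, 278, 401 and 166 counts, 2.47-fold higher in SPH than in METS (2.05 to 2.97). ZNF516-DT, singled out after its values were seen, had more H3K27me3 in the mesenchymal lines (103 counts for DLD1, 229 for SA, 213 for SPH and 115 for METS) and less H3K4me3 (47.9, 24, 16.5 and 36.4 CPM).

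Across rows the 2 marks did not mirror each other closely. Over the 106 loci, Spearman's rank correlation between the H3K27me3 and H3K4me3 log2 ratios was -0.31 for SA against DLD1, 0.01 for SPH and -0.23 for METS. For the pairs that leave DLD1 out, it was 0.14 for SPH against SA, -0.14 for METS against SA and -0.01 for METS against SPH. All points of a comparison share the same 4 libraries, so these values are descriptions.

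**Figure D5:**
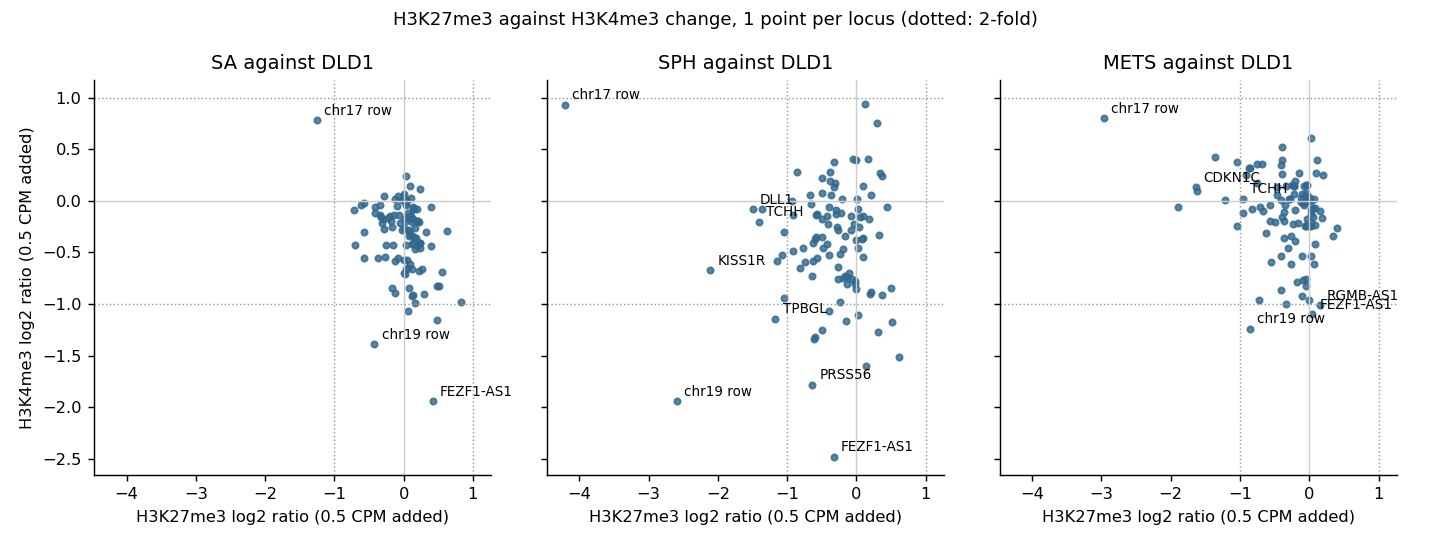
H3K27me3 log2 ratio (x axis) against H3K4me3 log2 ratio (y axis) to DLD1 for SA, SPH and METS, 1 point per locus of the 106, with 0.5 CPM added and dotted lines at 2-fold. Most loci lie inside the dotted lines, the chr17 row lies far left with more H3K4me3, and FEZF1-AS1 lies low with H3K27me3 inside the lines.

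Among the 21 rows with an H3K79me3 region, METS was past 2-fold higher than DLD1 at 4 (19%), against 6.93% of the 12214 rows with a region, and lower at 0, against 0.688%. They were the chr17 row, CDKN1C, TCHH and TTC34. With 2 CPM added 4.76% were higher, and the median log2 ratio of the 21 was 0.43, or 0.00 with quantile normalization. On CPM it was 0.17 over all 12214 rows and 0.38 over the 60 densely marked rows without strong H3K4me3. The direction was therefore not particular to the 21 rows. TTC34 had 44, 46, 48 and 79 counts in DLD1, SA, SPH and METS, 2.1-fold higher in METS than in DLD1 (1.43 to 3.11). TCHH rested on 1, 1, 1 and 11 counts. In SPH 1 row was higher, against 2.82%, and 0 were lower, against 1.75%, while in SA 0 were higher, against 0.426%, and 1 was lower, against 1.64%. That row was KALRN, with 6, 0, 3 and 1 counts, too few to give a ratio. CACNA1C, a subunit of L-type calcium channels, had 16, 8, 24 and 23 counts, 3.54-fold higher in SPH than in SA (1.54 to 9.11). METS and SPH were each past 2-fold above SA at 4 rows, where 12.6% and 6.64% of all rows were. Below SA, METS had 0 rows, against 0.761%, and SPH had 1, chr16:74088050-74330660, against 1.42%. METS was above SPH at 2 rows, against 7.14%, and below it at 0, against 0.942%.

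Few named rows were on the preset lists of developmental regulators. The lists left out other transcription factor genes among the rows, such as FEZF1, TCF21 and KLF1. The 46 rows without a symbol could not be matched, so the number of such regulators in the set is not known. Homeobox factors made up 5 of the 69 named rows (EMX1, HOXC4, HOXC5, HOXD8 and POU3F3), or 7.25%, and 5 of the 659 named rows with dense H3K27me3 alone, or 0.759%. Their share of all rows, or of rows with strong H3K4me3 alone, was not computed. The gap is therefore not described as particular to rows with both marks. None of the 5 passed 2-fold against DLD1 in either mark. EMX1, a cortical homeobox gene, had 4.01, 3.31, 2.28 and 3.02 CPM per kb of H3K27me3 in DLD1, SA, SPH and METS. POU3F3, a neural factor, had nearly level H3K27me3 at 2.39, 2.59, 2.38 and 2.34, but 58.6, 36.9, 32.3 and 59.4 CPM of H3K4me3, lower in the mesenchymal lines. HOXC4 and HOXC5 overlap and share all 5 H3K4me3 regions, with 52.7, 54.4, 59.3 and 63.1 CPM. The proneural factor NEUROG2 had 5.26, 5.2, 2.69 and 2.82 CPM per kb of H3K27me3 and 35.1, 35.5, 31.7 and 44.1 CPM of H3K4me3. Its H3K27me3 was lower in SPH and METS, while its H3K4me3 was lowest in SPH and highest in METS. GLI1, an effector of hedgehog signalling, had 4.25, 4.11, 3.37 and 3.33 CPM per kb.

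Signalling, guidance and channel genes added a few more named rows. Of the secreted signals and their partners, DLL1 passed 2-fold lower for H3K27me3 in SPH and the growth factor gene FGF9 in METS, with 2.99, 2.25, 2.44 and 1.44 CPM per kb, while HEY1 passed in no line. The axon guidance receptor genes ROBO3 (2.41, 2.47, 1.82 and 2.35) and UNC5A (2.26, 2.21, 1.62 and 2.08) and the ion channel genes CACNA1C (2.98, 3.22, 2.58 and 2.9) and CHRNA7 (2.29, 2.67, 2.43 and 2.22) stayed within 2-fold in both marks. VIM encodes vimentin, the intermediate filament of mesenchymal cells, and was the 1 epithelial or mesenchymal marker among the 69 named rows. Its H3K27me3 was 2.24, 1.79, 1.73 and 1.92 CPM per kb and its H3K4me3 34.8, 31.2, 36.2 and 38.5 CPM. In H3K27me3 both mesenchymal lines lay below both epithelial lines, though SA and METS were close. The mesenchymal lines did not stand apart from the epithelial ones in H3K4me3.

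Other named rows outside these lists, picked after their values were seen, varied in their H3K27me3. FST, which encodes the activin antagonist follistatin, had 5.94, 6.29, 5.96 and 4.45 CPM per kb in DLD1, SA, SPH and METS. TCF21, a transcription factor of mesodermal tissues, had 2.7, 3.18, 3.7 and 2.83, highest in SPH. BHLHE41, a circadian repressor, had 4.97 in DLD1 and 3.03, 2.3 and 2.51 in the derived lines, so DLD1 stood above all 3. EGFL7, an endothelial secreted factor, had 2.55, 2.38, 1.13 and 1.93, and KLF1, an erythroid factor, had 2.3, 2.21, 1.49 and 1.52.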

How the data were processed

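ChIP-seq of 3 histone marks was analysed in DLD1, SA, SPH and METS, 1 library per line and mark. The tables hold the authors' deposited read counts per region, taken as raw because they are whole numbers whose totals differ. The build was hg19 per the submitters' processing notes. Which aligner, region caller and counter were used, and whether an input was sequenced, are not given in the sources used here. The H3K27me3 table states that 7773 rows were skipped, so it covers chromosomes 1 to 19, and its totals and CPM refer to the 50000 rows held. Of these, 7 repeats were dropped, leaving 49993.

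The rows, lists and comparisons were chosen with earlier results of these data known. Counts were scaled to CPM by library total; H3K4me3 and H3K79me3 were summed over all regions overlapping a row. Log2 ratios used 0.5 CPM added and a 2-fold threshold. Python 3.11.15, pandas 2.3.3 and SciPy 1.17.1 were used, with edgeR 4.0.16 for TMM factors alone. Scripts were tested on simulated data. Named rows were, per comparison, up to 5 by H3K27me3 and 4 by each other mark in each direction past 2-fold, the 5 densest, those beside the thresholds, rows with marks past 2-fold together, and up to 5 per gene list.

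No annotation on hg19 was used. Symbols were assigned from a RefSeq table on GRCh38.p14 by gene length and by spacing to neighbouring genes, requiring 80% overlap after placement, with no coordinate conversion printed. Of 115 rows 69 received one, 6 of them by exact length. Hidden rows of exact length got the right symbol in 498 of 500 cases, an easier case than most of the rows, so a symbol is an assignment and not a deposited name. The alternatives were TMM and quantile scaling, 0.1 or 2 CPM added, a top 2% threshold, 20 CPM, H3K4me3 within 2 kb of an end, merged rows, and rows of 3 kb or more.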

Additional observations from a re-analysis of the deposited data

How the results depend on the processing

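No paired analysis was possible because each line has 1 library per mark. Each of 36 percentages past 2-fold and 18 medians was recomputed under 9 alternatives. Of these, 300 of 324 percentages and 147 of 162 medians stayed within the 95% interval of the reported value. The intervals treat rows as independent, though some overlap, and do not cover differences between libraries. With 21 rows they were wide. The H3K79me3 median in METS against DLD1 went from 0.43 to 0.00 inside an interval of -0.01 to 0.80. Staying inside an interval does not show that a value was unchanged. Library scaling shifted the median of all rows: with TMM factors the H3K27me3 median went from -0.14 to -0.02 for SA against DLD1, from -0.10 to 0.00 for SPH against DLD1 and from 0.11 to 0.02 for METS against SA, and the H3K79me3 median from 0.23 to 0.11 for METS against SA and from 0.15 to 0.00 for METS against SPH. The members' H3K27me3 median with TMM factors was 0.19 for SA against DLD1, -0.17 for SPH against DLD1 and -0.36 for METS against SA, each in the same direction as reported. Quantile normalization gave 0.09 for H3K27me3 in SA against DLD1, and for H3K4me3 0.42 in METS against SPH and -0.14 in SPH against SA; for H3K79me3 in METS against SPH it gave -0.04, where the reported median was 0.13. It gave 0.87% lower for H3K4me3 in METS against DLD1 and 3.48% lower in SPH against SA.

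With the top 2% (49 rows), H3K27me3 medians were -0.41 for METS and for SPH against DLD1, 0.00 for SA against DLD1, and -0.38 for METS and for SPH against SA. H3K79me3 was then higher in METS than in DLD1 at 44.4% of 9 rows, and 0% were lower for H3K79me3 in SA against DLD1 and SPH against SA and for H3K4me3 in METS against SPH. Among rows of 3 kb or more, the H3K27me3 median was -0.07 in METS against DLD1 and -0.18 in METS against SA, with 2.36% and 0.787% lower, and 0% were lower in METS against SPH. At 20 CPM, H3K4me3 in SA against DLD1 had a median of -0.19 with 1.23% lower, 0% were higher in METS against SA, and for H3K79me3 0% were lower in SPH against SA. With H3K4me3 within 2 kb of an end, 0% were lower for H3K4me3 in METS against SPH and for H3K79me3 in SA against DLD1.

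Adding 2 CPM gave 0% for H3K4me3 higher in METS against SA, H3K27me3 lower in METS against SPH, H3K79me3 higher in METS against SPH, and H3K79me3 lower in SA against DLD1 and SPH against SA. It gave 4.76% for H3K79me3 higher in METS against DLD1, METS against SA and SPH against SA, and 0.87% for H3K4me3 lower in METS against DLD1. It also lowered the H3K27me3 share in METS to 3.48% against DLD1 and 2.61% against SA, and in SPH to 6.09% against DLD1. Adding 0.1 CPM gave 19% higher for H3K79me3 in SA against DLD1. The cause of these shifts was not tested. The order of lines, with TMM factors, was 66.1% for H3K4me3 highest in METS of the derived lines and 60.0% for H3K27me3 lowest in METS.

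Limits: there was 1 library per line, so differences between lines cannot be told apart from differences between libraries. H3K79me3 counts were under 30 in every line at 11 of the 21 rows.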

Other observations

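Applied to each derived line, the rule also took rows outside the 115, of which there were 11 in SA, 25 in SPH and 18 in METS.

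The summed H3K27me3 counts over the 115 rows took 5.64% of the DLD1 library and 5.34, 4.58 and 4.13% of the SA, SPH and METS libraries. The row chr15:56922379-57210769 alone held 3.74, 3.31, 2.78 and 2.35%, more than the other 114 rows together. At this row H3K4me3 was 84.5, 73.9, 76 and 79 CPM and H3K79me3 90.0, 87, 66.8 and 73.4 CPM, so reads of all 3 marks were counted in every line. Whether its H3K27me3 density, far above that of any other row of the set, reflects the mark was not tested.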
